A study of Arabidopsis thaliana with 8 samples.

Results

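Nuclear genes whose products serve 3 complexes of the photosynthetic membrane were followed in whole Arabidopsis thaliana seedlings. The 8 genes are the photosystem II subunit genes PSBY and PSBW, the photosystem I subunit genes PSAE-1 and PSAN, and 4 genes of the plastid NADH dehydrogenase-like (NDH) complex, NdhL, NdhN, NdhS and CRR42. They were picked by gene symbol with earlier results of these data known, so counts and medians over them are a description and no test. Each had 1 probe set on the Affymetrix ATH1 array, and all 8 were among the 17332 probe sets tested of 22810 on the array. The study compared Polycomb mutants with wild type on 8 arrays, 2 per genotype. Wild type was Columbia (Col-0), clf-28 and swn-7 were T-DNA insertion lines, 1 for each gene, and the double mutant carried both insertions. All seedlings were stratified for 3 days and grown at 23 C and 70% humidity. They were bulked and harvested whole at labelled growth stage 1.03. The double mutant was 12 days old, against 10 days for every other genotype, so in each of its comparisons the genotype and the age of the plants cannot be told apart.

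Photosystem II takes electrons from water and photosystem I passes them on to ferredoxin, and both combine plastid-encoded core proteins with small subunits made from nuclear genes. The NDH complex sits in the same membrane, binds photosystem I and returns electrons from ferredoxin to the plastoquinone pool, a route known as cyclic electron flow. CLF and SWN encode related histone methyltransferases of the Polycomb group, which place the repressive trimethyl mark on lysine of histone H3. Plants that lack both are known to lose organ identity and to form callus-like tissue with embryo traits.

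Signals are linear array intensities, and every array had a 2% trimmed mean of 100. Signals under a floor of 10.0 were raised to it before log2 was taken. Between 15710 and 16290 of 22746 probe sets lay above the floor on an array, and arrays of the same genotype correlated with each other at 0.958 in wild type and at 0.974 to 0.986 in the mutants. The labels do not state whether replicate arrays stand for separately grown seedlings, so the spread behind the p-values is that between these arrays alone and may be technical. The platform annotation used here does not name CLF or SWN, so their transcripts were not analysed here and the genotypes rest on the labels alone.

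All 8 genes fell in the double mutant, by 5.30-fold to 24.2-fold against wild type. Of all probe sets tested, 21.5% were called lower in this comparison and 46.7% were called in either direction (limma adjusted p below 0.05), and the median log2 change was 0.11, against -3.85 for the 8 genes. Both double-mutant arrays lay below all 6 other arrays for each of the 8 genes, as they did for 24.8% of all probe sets. The lowest of the 6 other arrays was 3.00 times (PSBW) to 15.5 times (NdhL) the higher of the 2 double-mutant arrays. Across those 6 arrays a gene spanned 1.39-fold (PSAE-1) to 1.92-fold (NdhN) from lowest to highest. Whole seedlings were measured, so fewer cells that express a gene and less RNA per cell cannot be told apart.

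**Figure D1:**
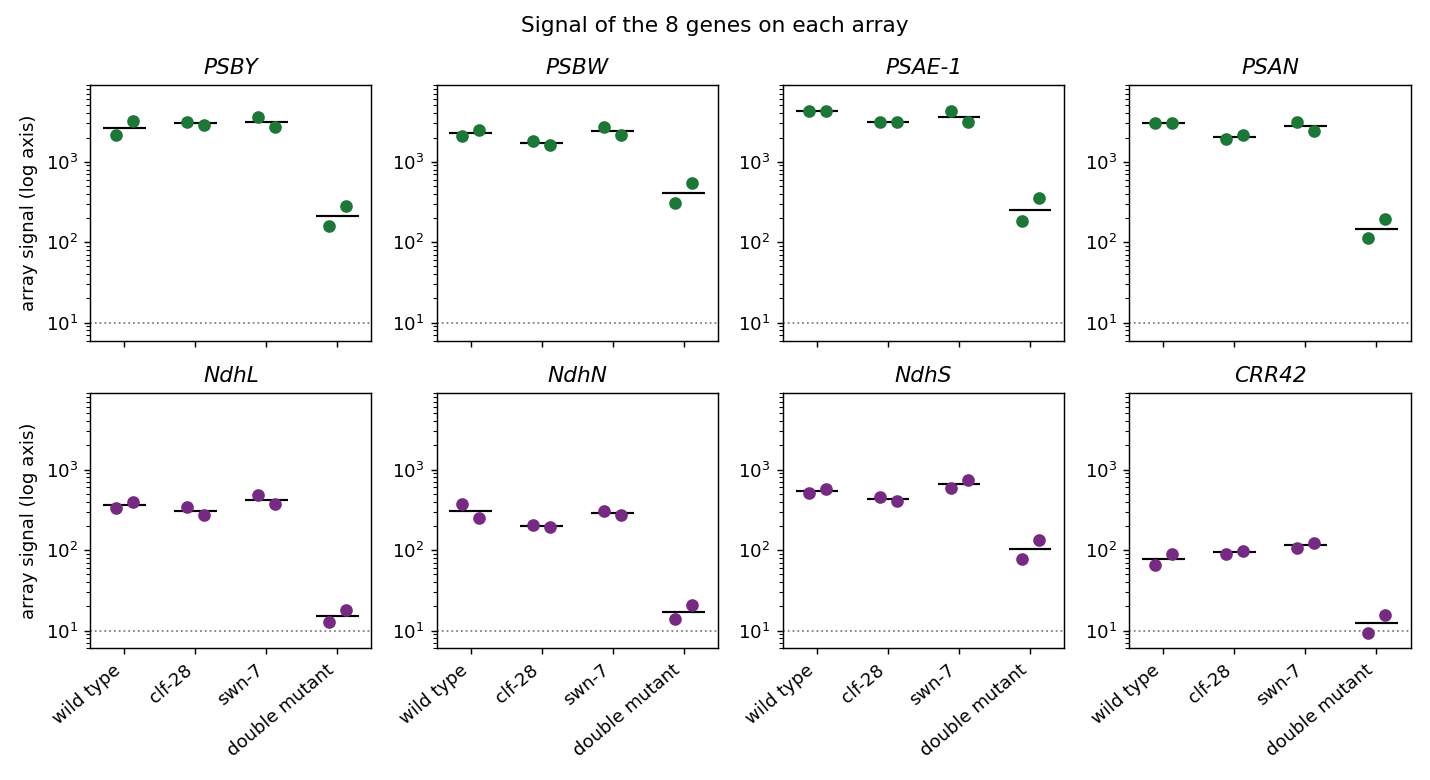
Array signal (log axis) of the 8 genes in each genotype, with 1 point per array, replicate 1 to the left, and a bar at the mean of the log2 values after the floor. Photosystem genes are green and NDH genes purple, the dotted line is the floor of 10.0, and both double-mutant points lie below every other point of the same gene.

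Among the photosystem II genes, PSBY (AT1G67740) encodes a precursor that is cut into a pair of small membrane proteins of the reaction centre. Its signal was 2169.9 and 3199 in wild type, 3084 and 2899 in clf-28, 3641 and 2726 in swn-7, and 160.9 and 278.8 in the double mutant. The wild-type arrays alone spanned the values of clf-28, and swn-7 overlapped both. PSBY fell 12.4-fold in the double mutant (log2 -3.64, SE 0.31, n = 2 arrays each, limma adjusted p = 9.57e-05). PSBW (AT2G30570) encodes a small membrane protein that holds together assemblies of photosystem II with its light-harvesting antenna. Its signal was 2113 and 2456 in wild type, 1835 and 1632 in clf-28, 2718 and 2177 in swn-7, and 308.2 and 544.0 in the double mutant. The fall of PSBW was smaller, 5.56-fold (log2 -2.48, SE 0.28, limma adjusted p = 3.48e-04), and the higher double-mutant array was still at 23.9% of the wild-type mean.

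Among the photosystem I genes, PSAE-1 (AT4G28750) encodes a stromal subunit where ferredoxin docks. Its signal was 4236 and 4259 in wild type, 3120.4 and 3146 in clf-28, 4285 and 3074 in swn-7, and 184.2 and 349.7 in the double mutant. The 2 wild-type arrays were nearly equal, while the swn-7 arrays straddled those of clf-28. PSAE-1 fell 16.7-fold in the double mutant (log2 -4.06, SE 0.31, limma adjusted p = 5.60e-05). PSAN (AT5G64040) encodes a subunit on the lumenal side, where plastocyanin delivers electrons. Its signal was 3039.9 and 3011 in wild type, 1909 and 2119.5 in clf-28, 3158 and 2394 in swn-7, and 113.0 and 191.6 in the double mutant. PSAN had the largest photosystem fall, 20.6-fold (log2 -4.36, SE 0.26, limma adjusted p = 1.95e-05). Only 86 of the 17332 probe sets had a log2 change as low or lower.

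Among the NDH genes, NdhL (AT1G70760) encodes a membrane subunit of the complex. Its signal was 337.0 and 394.6 in wild type, 341.9 and 275.6 in clf-28, 482.8 and 369.0 in swn-7, and 12.7 and 17.8 in the double mutant. With both double-mutant arrays just above the floor, NdhL had the largest fall of the 8 genes at this floor, 24.2-fold (log2 -4.60, SE 0.23, limma adjusted p = 7.71e-06). NdhN (AT5G58260) encodes a subunit of the stromal arm. Its signal was 375.0 and 250.3 in wild type, 204.7 and 195.6 in clf-28, 302.7 and 269.1 in swn-7, and 13.8 and 20.8 in the double mutant. NdhN fell 18.1-fold (log2 -4.18, SE 0.25, limma adjusted p = 2.03e-05), and its wild-type arrays were further apart than those of PSAE-1 or PSAN.

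NdhS (AT4G23890) encodes the subunit that forms the ferredoxin-binding site of the NDH complex. Its signal was 512.7 and 572.3 in wild type, 457.3 and 403.1 in clf-28, 588.1 and 750.1 in swn-7, and 78.5 and 133.3 in the double mutant. The genotypes followed each other without overlap, with swn-7 highest, then wild type, clf-28 and the double mutant, but among the first 3 no step passed the test. NdhS had the smallest fall of the 8 genes, 5.30-fold (log2 -2.405, SE 0.25, limma adjusted p = 2.68e-04). CRR42 (AT5G20935) encodes a stromal factor for assembly of the NDH complex and is no subunit of it. Its signal was 64.7 and 90.1 in wild type, 89.4 and 98.4 in clf-28, 106.8 and 123.8 in swn-7, and 9.4 and 15.7 in the double mutant. The first double-mutant array lay under the floor, so CRR42 was at least 6.10-fold lower than in wild type (log2 -2.61, SE 0.28, limma adjusted p = 2.67e-04).

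The photosystem and NDH genes did not form separate sets by the size of their fall. The 4 photosystem genes had log2 changes of -4.36 to -2.48 with a median of -3.85, and the 4 NDH genes of -4.60 to -2.405 with a median of -3.39. The medians differed by 0.46 and the means by 0.19, against a span of 1.89 within the photosystem genes and 2.19 within the NDH genes. This difference is a description with no test, and it depends on the floor because NdhL, NdhN and CRR42 lay close to it in the double mutant. It was 0.87 with a constant added in place of the floor, 0.69 with a floor of 20%, 0.63 when the first wild-type array was left out and 0.29 when the second was.

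Ordered by size of fall, NdhL came first, then PSAN, NdhN, PSAE-1, PSBY, CRR42, PSBW and NdhS. Neighbours in this order lay 0.07 to 0.43 apart on the log2 scale, except PSBY and CRR42, which were 1.03 apart. The first 5 genes kept 3.49% (NdhL) to 6.11% (PSBY) of the wild-type mean on double-mutant replicate 1 and 4.89% to 10.6% on replicate 2. The last 3 kept 13.1% (CRR42) to 14.5% (NdhS) on replicate 1 and 20.5% to 24.6% on replicate 2. The same 5 genes thus stood lowest on both double-mutant arrays, with NdhN and PSAE-1 exchanging the third and the fourth place. The 13.1% of CRR42 is the floor itself, as its signal on replicate 1 was 9.4. At this floor CRR42 could not have stood among the lowest 5 on that array. The order also depends on the processing, as NdhL, NdhN and CRR42 lay close to or under the floor in the double mutant. Over 20 alternative settings the change of NdhL was as small as -3.90 and that of NdhN as small as -3.55. PSAN stayed at -3.98 or lower and PSAE-1 at -3.60 or lower. PSAN thus came before NdhL, and PSAE-1 before NdhN, in at least 1 setting.

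**Figure D2:**
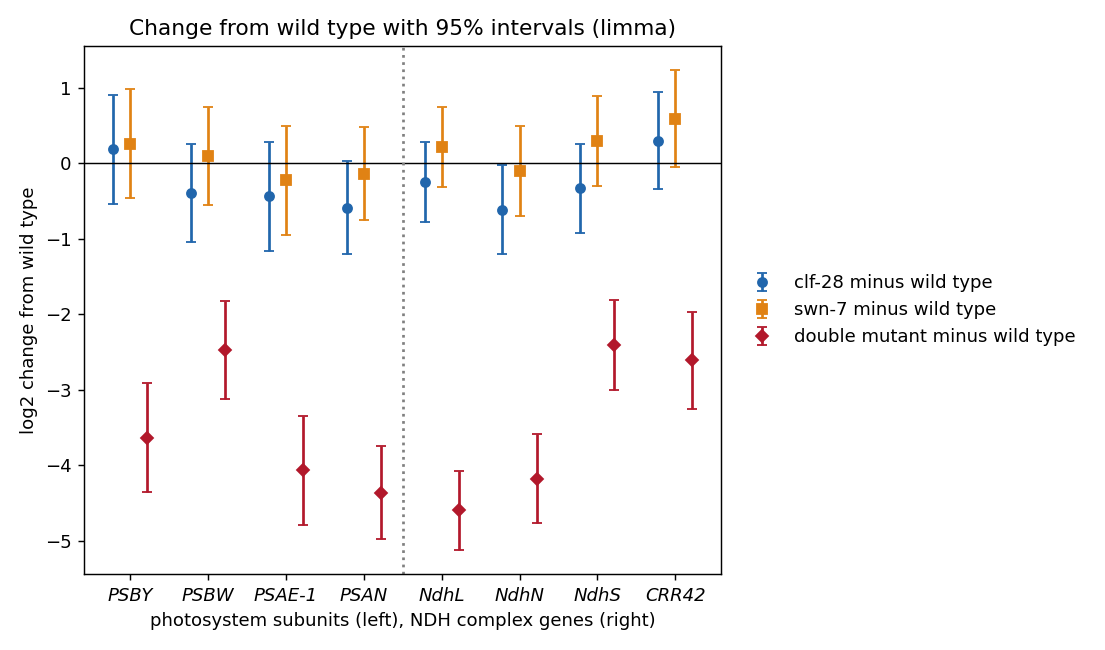
Change in log2 signal from wild type (vertical axis) for each of the 8 genes, with limma's 95% intervals, in clf-28 (blue circles), swn-7 (orange squares) and the double mutant (red diamonds). The double-mutant intervals all end at -1.81 or lower, and of the single-mutant intervals only that of NdhN in clf-28 excludes 0, by 0.02.

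The 2 double-mutant arrays differed in the same direction for every gene. Replicate 1 was below replicate 2 for 8 of 8 genes, by 0.48 (NdhL) to 0.92 (PSAE-1) on the log2 scale, and the median gap was 0.76. Over all probe sets tested, replicate 1 was below replicate 2 in 39.6%, with a median gap of -0.04. Over the 673 probe sets called lower with a log2 change at least as low as that of NdhS, it was below in 60.8%, with a median gap of 0.23. Without replicate 1 the median log2 change was -3.42 for the photosystem genes and -3.08 for the NDH genes. Without replicate 2 these medians were -4.28 and -3.70.

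**Figure D3:**
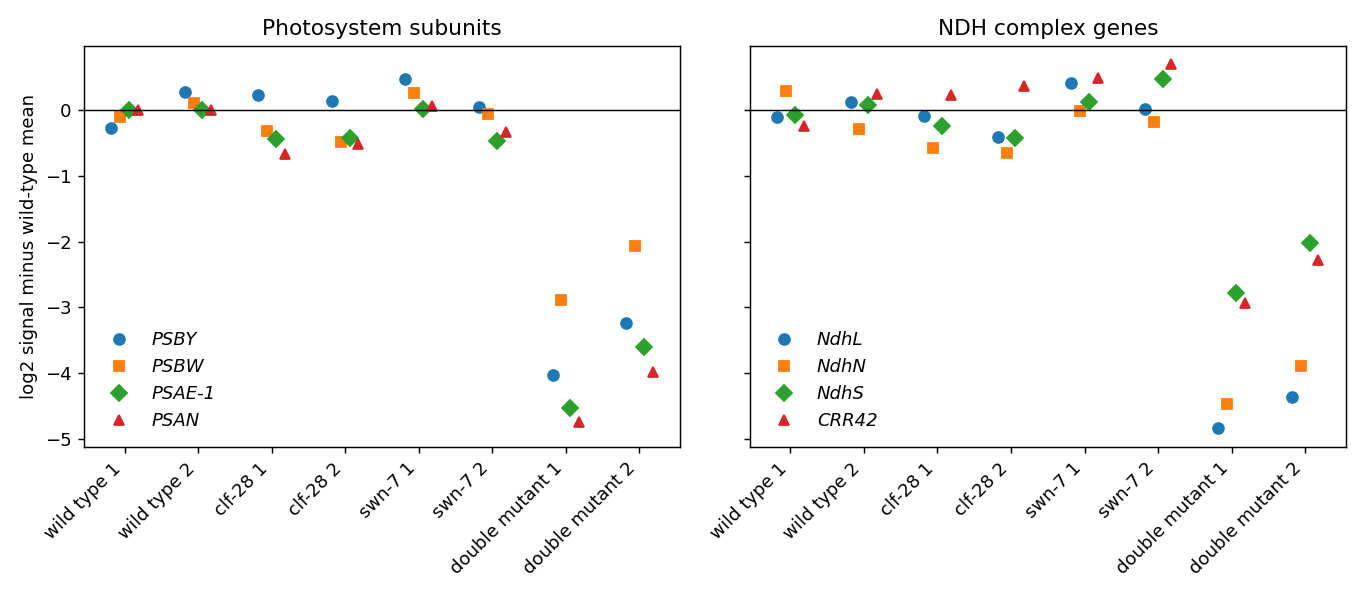
Log2 signal minus the wild-type mean (vertical axis) on each of the 8 arrays (horizontal axis), with 1 symbol per gene, for the photosystem genes on the left and the NDH genes on the right. On double-mutant replicate 1 the genes lie between -4.84 and -2.79, and on replicate 2 between -4.36 and -2.02.

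Loss of CLF alone asks whether SWN suffices for wild-type levels of these transcripts. In clf-28, 0 of 8 genes passed against wild type (limma adjusted p 0.389 to 0.860), where 0.121% of all probe sets were called, and 1 of 8 had an unadjusted p under 0.05, against 12.5% of all probe sets. That background was 584 probe sets (3.37%) without wild type replicate 2 and 2 (0.0115%) without clf-28 replicate 2, against 21 with all arrays, 8 without clf-28 replicate 1 and 7 without either swn-7 array, while the members' count stayed at 0. NdhN had a log2 difference of -0.61 (SE 0.25, limma adjusted p = 0.389), which was -0.32 without wild type replicate 1, and PSAN one of -0.59 (SE 0.26, limma adjusted p = 0.419). For 5 of 8 genes, PSBW, PSAE-1, PSAN, NdhN and NdhS, the higher clf-28 array was under the lower wild-type array, as it was for 20.6% of all probe sets. PSBY (log2 0.18) and CRR42 (log2 0.30) had values above wild type. The 95% intervals of the 8 changes reached from -1.21 to 0.94, so falls as large as those of the double mutant lay outside them.

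Loss of SWN alone asks the same of CLF. In swn-7, 0 of 8 genes passed against wild type (limma adjusted p 0.435 to 0.940), as did 0 of 17332 probe sets, and 0 of 8 had an unadjusted p under 0.05, against 12.2% of all probe sets. The array-wide 0 became 806 probe sets (4.65%) when the second wild-type array was left out and 15 (0.0865%) when the first was, and the members' count stayed at 0. CRR42 had the largest difference (log2 0.59, SE 0.28, limma adjusted p = 0.435). For CRR42 and NdhS both swn-7 arrays lay above both wild-type arrays, as they did for 19.4% of all probe sets, and for the other 6 genes the arrays overlapped. The 95% intervals reached from -0.95 to 1.23. Set directly against swn-7, clf-28 had the lower mean for 8 of 8 genes, with log2 differences of -0.63 (NdhS) to -0.08 (PSBY), as did 44.4% of all probe sets (56.5% with arrays scaled to equal medians), and 0 of 8 passed (limma adjusted p 0.545 to 1). Without swn-7 replicate 1 it was lower for 6 of 8, since PSBY (0.13) and PSAE-1 (0.027) turned sign. The arrays of 6 of 8 genes were lower in clf-28 without overlap, as were 18.6% of all probe sets. Of all probe sets, 0.104% (18) were called there. This was 3 without swn-7 replicate 2, 5 without swn-7 replicate 1 or clf-28 replicate 2, 11 when the first clf-28 or the first double-mutant array was left out, and 12 when the second double-mutant array was. The 1 gene with an unadjusted p under 0.05 was NdhS (SE 0.25, limma adjusted p = 0.545), against 8.72% of all probe sets.

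The double mutant was also set against each single mutant. In these comparisons loss of the other gene cannot be told apart from the age of the plants. Against clf-28 all 8 genes fell, with log2 changes of -4.35 (NdhL, SE 0.23) to -2.07 (NdhS, SE 0.25) and limma adjusted p values of 9.96e-06 to 8.68e-04, where 21.7% of all probe sets were called lower. Against swn-7 all 8 fell as well, with log2 changes of -4.81 (NdhL) to -2.57 (PSBW) and limma adjusted p values of 6.07e-06 to 2.81e-04, where 20.6% were called lower. These comparisons share the double-mutant arrays with the one against wild type. For each gene the order of levels was thus the double mutant lowest, with no call among wild type, clf-28 and swn-7.

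The interaction subtracts the summed single-mutant changes, each from wild type on the log2 scale, from the change in the double mutant. Like every comparison with the double mutant, it also carries the difference in age. It was negative and passed for 8 of 8 genes, and of all probe sets 15.7% were called negative and 31.0% in either direction. These shares were 10.1% and 18.9% when the second clf-28 array was left out, 10.7% and 19.6% when the first was, and 10.4% and 20.5% when the first double-mutant array was. Among the photosystem genes the interaction ran from -4.08 for PSBY (SE 0.44, limma adjusted p = 6.32e-04) to -2.17 for PSBW (SE 0.39, limma adjusted p = 0.00563). Among the NDH genes it ran from -4.56 for NdhL (SE 0.32, limma adjusted p = 8.99e-05) to -2.36 for NdhS (SE 0.36, limma adjusted p = 0.00276). The medians were -3.52 and -3.48. For PSBW, PSAE-1, PSAN and NdhN the interaction (-2.17, -3.40, -3.63 and -3.46) was smaller in size than the change from wild type. For NdhL and NdhS it was smaller too, but nearly equal (-4.56 against -4.60 and -2.36 against -2.405). For PSBY and CRR42, whose values were higher in both single mutants, the interaction was larger (-4.08 and -3.49).

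Other genes of the same machinery were taken from 7 lists of symbols, of which few are named in the annotation used here. The list totals count synonyms as separate symbols. A symbol is called measured where it was found by name, so the others may still have a probe set. Beside the 8 genes, 17 list genes were measured, and in the double mutant 12 of the 17 fell, 1 rose and 4 did not pass, with a median log2 change of -1.04. Of all probe sets, 21.5% were called lower and 25.2% higher in that comparison, which is also the background of the counts for each list that follow. PSB27, which encodes a lumenal factor for assembly and repair of photosystem II, was the only further gene of the photosystem II list measured. It fell 3.42-fold (log2 -1.77, SE 0.25, limma adjusted p = 9.81e-04). The photosystem I list and the list of NDH subunits, with 2 of 16 and 3 of 36 symbols measured, held only genes described above.

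In the list of NDH assembly and expression factors, 5 of 16 symbols were measured, and 3 fell, 0 rose and 2 did not pass. CRR42 had the largest change. CRR21, which encodes a pentatricopeptide-repeat protein that edits a plastid ndh transcript, fell 1.74-fold (log2 -0.80, SE 0.19, limma adjusted p = 0.0106). It no longer passed when the fit held only wild type and the double mutant (limma adjusted p = 0.0504). CRR41, an assembly factor named after its values were seen, fell 1.80-fold (log2 -0.85, SE 0.29, limma adjusted p = 0.0453). Its call was lost in 10 of 20 alternative settings (limma adjusted p 0.0547 to 0.143), among them the omission of any wild-type, clf-28 or swn-7 array and of double-mutant replicate 1, without which its log2 change was -0.42. CRR28, likewise named after its values were seen, and CRR22 encode further editing factors and had log2 changes of -0.72 (SE 0.37, limma adjusted p = 0.152) and 0.02 (SE 0.28, limma adjusted p = 0.972). The sign of CRR22 turned with arrays scaled to equal medians (log2 -0.05). The list's median was -0.80.

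Of 24 symbols for photosystem assembly factors, 6 were measured, and 5 fell, 0 rose and 1 did not pass, with a median log2 change of -1.31. HCF101, an iron-sulfur scaffold needed for photosystem I, fell 3.01-fold (log2 -1.59, SE 0.16, limma adjusted p = 2.44e-04), and LPA1, a membrane factor for photosystem II assembly, fell 2.77-fold (log2 -1.47, SE 0.17, limma adjusted p = 4.30e-04). LPA66, an editing factor for a photosystem II transcript, had a log2 change of -0.59 (SE 0.23) that did not pass (limma adjusted p = 0.0751). Without wild type replicate 1 it did (limma adjusted p = 0.0495). PAM68, an assembly factor of photosystem II named after its values were seen, lost its call without wild type replicate 2, without double-mutant replicate 1 and when the fit held only these genotypes (limma adjusted p 0.0574 to 0.0814). None of these 6 changes was as large as the smallest among the 8 genes, which was that of NdhS. No test was made of the difference between the lists.

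Among electron carriers and ATP synthase genes, 3 of 23 symbols were measured, and 2 fell, 0 rose and 1 did not pass. ATPC1, which encodes the gamma subunit of the plastid ATP synthase, fell 6.56-fold (log2 -2.71, SE 0.24, limma adjusted p = 1.16e-04). PGRL1B, which acts in the other route of cyclic electron flow, fell 2.06-fold (log2 -1.04, SE 0.17, limma adjusted p = 0.00210).

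**Figure D4:**
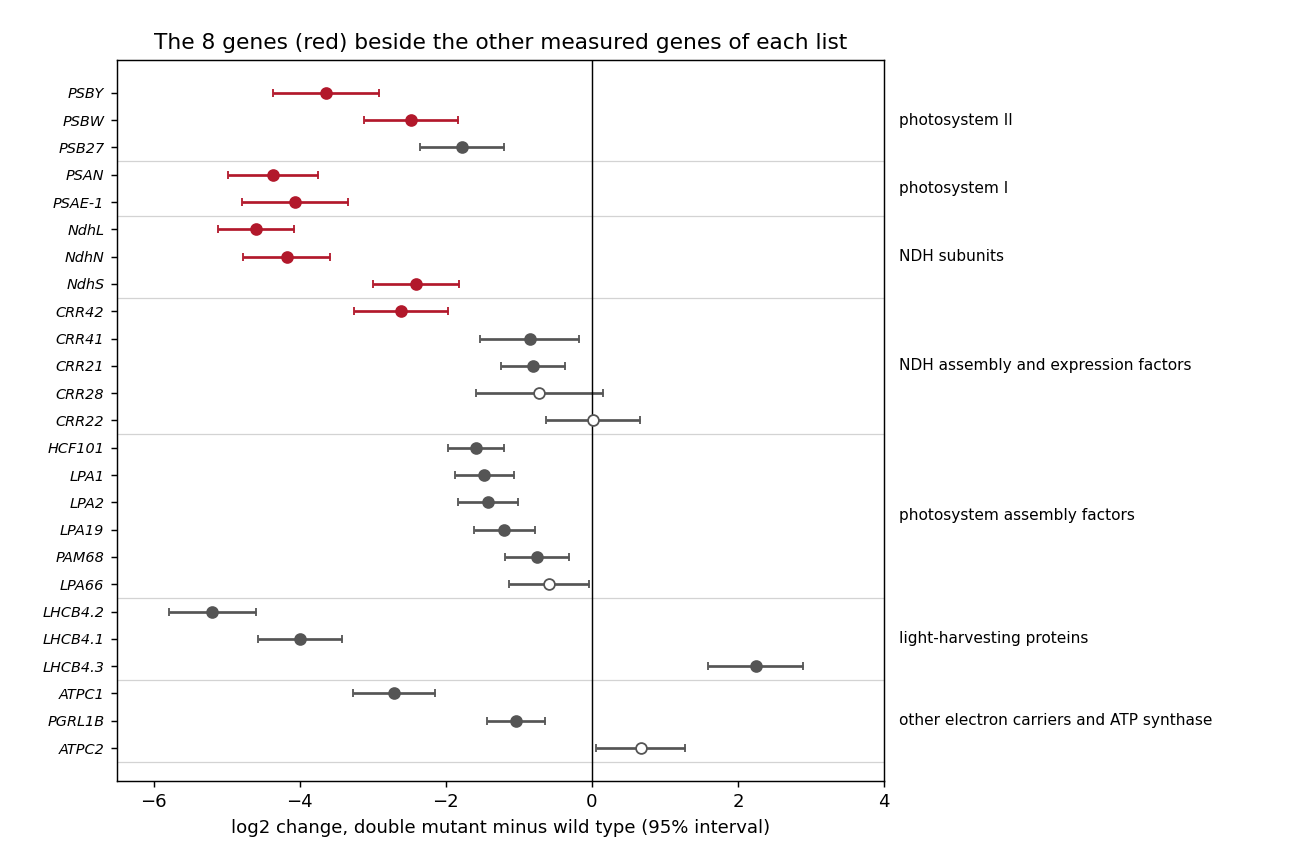
Log2 change of the double mutant against wild type (horizontal axis) with 95% intervals for the 8 genes (red) and the 17 other measured list genes (grey), ordered within each list. Filled points passed and open points did not. The changes run from -5.19 for LHCB4.2 to 2.24 for LHCB4.3, and the grey points of the assembly lists lie between -1.59 and 0.02.

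Markers of other tissues were read beside these falls. Of 20 symbols in the seed and embryo list 3 were measured, and these genes, PAP85, OLEO3 and BBM, all rose in the double mutant. Of all probe sets, 25.2% were called higher there than in wild type and 21.5% lower. The summed signal of the 3 genes was 5652 to 6765 in the double mutant. It was 33.5 to 84.0 in wild type and 10.1 to 26.7 in the single mutants. BBM was at the floor on all 6 other arrays. Of 14 symbols in the root list 3 were measured. EXPA18 (log2 -1.20, limma adjusted p = 0.0171) and EXPA7 (log2 -1.20, limma adjusted p = 0.0395) fell and PYK10 did not pass (log2 0.29, limma adjusted p = 0.239). Both expansin calls were lost without either wild-type or either double-mutant array, with a floor of 20% and with no filter, and that of EXPA7 also without either clf-28 array (limma adjusted p 0.0565 to 0.525), and EXPA7 was at the floor on both double-mutant arrays. The summed root signal, nearly all from PYK10, was 4063 to 4559 in the double mutant, 3362 to 3757 in wild type and 3015 to 3365 in the single mutants. The part of tissue composition in the falls of the 8 genes was not tested.

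Likeness of pattern was measured as the Euclidean distance between log2 profiles over the 8 arrays, each centred on its wild-type mean, for 1309 named genes. Nearest to the mean profile of the photosystem genes were RCA, which encodes Rubisco activase, at a distance of 0.49, CaS, which encodes a thylakoid calcium-sensing protein, at 0.49, and PRK, which encodes the Calvin-cycle enzyme phosphoribulokinase, at 0.52. Their log2 changes in the double mutant were -3.69, -3.89 and -3.96. Nearest to the mean profile of the NDH genes were TAPX, which encodes a thylakoid ascorbate peroxidase, at 0.56, CHLI2, which encodes a magnesium chelatase subunit, at 0.60, and SBPASE, which encodes a Calvin-cycle phosphatase, at 0.75. Their log2 changes were -3.21, -3.25 and -3.64. The members themselves lay at 0.73 (PSAE-1) to 1.65 (PSBW) from the photosystem mean and at 1.36 (NdhN) to 1.66 (NdhL) from the NDH mean. These neighbours were picked as the nearest of 1309 genes. That they lay closer than the members therefore says nothing of how alike the members are.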

How the data were processed

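RNA of whole seedlings was hybridised to ATH1 arrays, 1 per sample. The deposited values are intensities, 1 linear signal per probe set and array, and per the submitters' processing notes MAS5 and GCOS were used. The sources used here give neither their versions nor a genome build, so no coordinates are printed. The log2 signals were modelled by genotype over the 8 arrays together, using lmFit and eBayes (with an intensity trend) of limma 3.58.1 under R 4.3.3. Before that, signals were raised to a floor of 10% of the trimmed mean. Probe sets above the floor on at least 2 arrays were tested, and 64 control probe sets were left out. The fit had 4 residual and 3.43 prior degrees of freedom. Two-sided p-values were adjusted by Benjamini-Hochberg over 17332 probe sets, with a threshold of 0.05. SE and 95% intervals are limma's. The script was tested on simulated data with few changed probe sets, a check of the code that does not bear on the p-values here. The alternatives changed the floor, the scaling, the filter, the eBayes settings, the arrays in the fit or a replicate block, or left out each array in turn.

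Genes were named through the platform annotation and RefSeq gene tables (TAIR10.1). Of the probe sets, 13513 have 1 symbol, of which 13436 matched RefSeq, 503 have several and 8794 are not listed. The members and lists were chosen with earlier results of these data known. The named genes were the 8 members, of each list the 2 genes with the smallest and the 1 with the largest adjusted p in the double mutant against wild type, and the 3 nearest profiles per set. A gene takes its probe set with the highest mean, and each of the 8 members had 1. Sequences were not used here, so a planned motif search was not made. Depth has no counterpart on arrays, and their number limits the precision.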

Additional observations from a re-analysis of the deposited data

Results flagged for a closer look

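For each of the 8 genes the double-mutant change differed from the summed single-mutant changes, by the test of the interaction itself. The double mutant was 12 days old and the other genotypes 10. Age and the joint loss of CLF and SWN therefore cannot be told apart in this test. The log2 interaction was -4.08 for PSBY, -2.17 for PSBW, -3.40 for PSAE-1 and -3.63 for PSAN, and it was -4.56 for NdhL, -3.46 for NdhN, -2.36 for NdhS and -3.49 for CRR42. The limma adjusted p values ran from 8.99e-05 to 0.00563, and 31.0% of all probe sets tested passed this test in either direction, a share that was 18.9% when the second clf-28 array was left out, 19.6% when the first was and 20.5% when the first double-mutant array was. CRR42 lay under the floor on double-mutant replicate 1, so its value depends on the floor. Groups of 2 arrays are too small to look for single outlying arrays.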

How the results depend on the processing

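All 8 genes passed in the double mutant against wild type, clf-28 and swn-7 under each of 20 alternatives (limma adjusted p at most 0.0131), and in the interaction under each of 19 (at most 0.0338). In clf-28 and swn-7 against wild type and in clf-28 against swn-7, 0 of 8 passed under any of the 20. Over these settings the share of all probe sets called lower in the double mutant ran from 13.9% to 22.9% against wild type. It ran from 13.8% to 23.1% against clf-28 and from 13.3% to 23.9% against swn-7. In the interaction the share called negative ran from 8.97% to 17.9%. The difference between the NDH and the photosystem median in the double mutant was 0.46. It was 0.69 with a floor of 20%, 0.87 with a constant added, and 0.29 to 0.63 with 1 array left out. Of 24 changes that did not pass, 8 turned sign with 1 array left out. In clf-28 against wild type PSBY ranged from -0.10 to 0.46. In swn-7 against wild type PSBY ranged from -0.022 to 0.54, PSBW from -0.065 to 0.25, PSAE-1 from -0.47 to 0.013, PSAN from -0.34 to 0.062 and NdhN from -0.39 to 0.19. In clf-28 against swn-7 PSBY ranged from -0.28 to 0.13 and PSAE-1 from -0.45 to 0.027. CRR22 ranged from -0.070 to 0.10, and was -0.045 with equal medians. The labels do not say that a replicate number marks a shared batch, and deviations of same-numbered arrays correlated at -0.08 to 0.22. With the replicate block, 8 of 8 genes passed in the double mutant against wild type (limma adjusted p at most 8.34e-04) and 0 of 8 in clf-28 and in swn-7, and the difference between medians stayed at 0.46. Of all probe sets, 21.4% were called lower with this block in the double mutant, 0.133% were called in clf-28 and 0 in swn-7. CRR41 lost its call (limma adjusted p = 0.0547). No member had a further probe set, so that alternative gave no value. With only the compared arrays in the fit, 0 probe sets were called in clf-28 against wild type or against swn-7, and with a constant added 42 and 36. Signals near the floor limit the changes of NdhL, NdhN and CRR42. Scaling to equal medians moved the median log2 change of all probe sets in the double mutant against swn-7 from 0.13 to 0.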

Other observations

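Related genes did not all move with the 8 described above. Of 27 light-harvesting symbols 3 were found by name in the annotation used here, all for the minor antenna protein LHCB4. Of these, LHCB4.1 fell 15.9-fold (log2 -3.995, SE 0.25, limma adjusted p = 2.12e-05) and LHCB4.2 fell 36.6-fold (log2 -5.19, SE 0.25, limma adjusted p = 7.53e-06), while LHCB4.3 rose 4.73-fold (log2 2.24, SE 0.28, limma adjusted p = 5.74e-04). Of the genes for the gamma subunit of the plastid ATP synthase, ATPC1 fell while ATPC2, with a log2 change of 0.67 (SE 0.26), did not pass (limma adjusted p = 0.0709), although both double-mutant arrays were above both wild-type arrays. ATPC2 passed as higher without wild type replicate 2 (limma adjusted p = 0.0211). Of the 12 list genes that fell, 10 were lower on double-mutant replicate 1 than on replicate 2, with a median gap of 0.35 on the log2 scale, the direction that all 8 genes showed. Of all 17 other list genes, whether they fell or not, 15 were lower on replicate 1, with a median gap of 0.33. LHCB4.3, which rose, was among them (182.4 and 261.1). Over all probe sets tested the share was 39.6%.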
